A study of Mus musculus with 18 samples.

Results

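The genes described here are 9 genes of Nodal/Activin signalling: the ligand genes Nodal and Gdf3, the coreceptor gene Tdgf1, the Smad partner gene Foxh1, the secreted antagonist genes Lefty1, Lefty2 and Cer1, and the intracellular inhibitor genes Smad7 and Skil. They were chosen by symbol, and each symbol matched 1 of the 49671 gene identifiers of the count table through the GRCm38 annotation. Nodal and Activin, like the related TGF-β ligands, bind paired serine/threonine kinase receptors that phosphorylate Smad2 and Smad3, and Nodal and Gdf3 also need the coreceptor encoded by Tdgf1, which Activin does not. The phosphorylated Smads join Smad4 and act on DNA with partners such as Foxh1. Lefty1, Lefty2, Smad7 and Skil are known targets of the pathway that act back on it as inhibitors, and Nodal is known to amplify its own transcription in the epiblast.

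The study grew mouse embryonic stem (ES) cells as clumps in Matrigel to compare the culture conditions under which they form polarised rosettes. All cells had been maintained in 2i with Lif at 4 ng/ml, and poly(A) RNA was sequenced from 18 samples, 3 in each of 6 groups. Wild-type E14 cells (strain label "strain 12910la", passage 20) spent 48 h in N2B27 medium with the solvent DMSO, with 3 µM of the Gsk3 inhibitor CHIR99021 (CH), with 3 µM CHIR99021 plus 0.4 µM PD0325901, which inhibits MEK (2i), or with 12 ng/ml Fgf2 plus 20 ng/ml Activin A (Fgf2/Activin). Esrrb fl/fl cells with the tamoxifen-inducible Cre MerCreMer (labelled as from Acr-EGFP transgenic mice, passage 25) spent 24 h in the same medium with CHIR99021 at 3 µM, either after 1 day of 4OHT (Esrrb null) or without it (Esrrb floxed). The floxed cells were not exposed to 4OHT, so the deletion and 4OHT itself cannot be told apart, and Fgf2 and Activin A were added together, so neither do their effects separate. The lines differed in origin, passage and hours of culture, and no fold change was computed between them. Total counts per sample lay between 25388139 and 37158661 in the wild-type cells and in the Esrrb fl/fl cells between 19915222 and 20140699.

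Levels are given as CPM, counts scaled to a common library size with TMM factors over the 18 samples, for replicates 1, 2 and 3 in that order. Replicate 1 stood apart from replicates 2 and 3 in every group: the chi-square per gene of its counts against theirs was 11.8 to 65.9, and that of replicate 2 against 3 was 1.46 to 8.57. A gene was called where the Benjamini-Hochberg adjusted p of edgeR's quasi-likelihood test was under 0.01 and the absolute log2 fold change was above 1. Of the 9 genes, 8 passed the filter on low counts. Lefty1 and Lefty2 are near 0 in DMSO and passed through the groups in which they are high, so counts over these 8 genes are a description only. Cer1, which encodes a secreted inhibitor of Nodal made by the anterior visceral endoderm, had at most 4 counts in any sample and at most 0.207 CPM, and no fold change is given for it.

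Activin-supplied cells had more RNA of Nodal and of 4 inhibitor genes of the pathway than DMSO cells. Of 16413 genes tested, 205 were called between Fgf2/Activin and DMSO, which is 1.25% of them, and 424 were called with the replicate number as a block, 112 without Fgf2/Activin replicate 2, 118 without Fgf2/Activin replicate 3, 121 without DMSO replicate 3 and 499 without replicate 1 of every group. Of the 8 pathway genes tested, 5 were called and all 5 were higher in Fgf2/Activin: Nodal, Lefty1, Lefty2, Smad7 and Skil. The median log2 fold change of the 8 was 2.85, against -0.02 over all genes tested. Between CH and DMSO, which share the DMSO samples with the first comparison, 5 of the 8 were also called, all higher in CH: Nodal, Gdf3, Lefty1, Lefty2 and Smad7. Here 17.7% of all genes were called, and the median was 2.21 for the 8 against 0.00 for all genes.

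Nodal (ENSMUSG00000037171, chr10:61417972-61425338, plus strand), the ligand gene, was at 10.4, 7.64 and 5.6 CPM in DMSO and at 62.1, 62.4 and 56.9 CPM in Fgf2/Activin. In CH it was at 43.8, 62.1 and 58.2 CPM, and in 2i at 105, 85.7 and 81.8 CPM. The DMSO samples lay below all 9 others, CH and Fgf2/Activin overlapped, and 2i was above both. Nodal was 7.63-fold higher in Fgf2/Activin than in DMSO (log2 fold change 2.93, SE 0.21, adjusted p = 1.87e-05 from the quasi-likelihood F-test of edgeR, Benjamini-Hochberg adjusted) and 6.92-fold higher in CH than in DMSO (2.79, SE 0.21, adjusted p = 2.45e-06 in the same test). Between Fgf2/Activin and CH the log2 difference was 0.14 (SE 0.19, adjusted p = 0.583, edgeR), with an approximate 95% interval from -0.24 to 0.52. The Nodal level with supplied Activin and that with CHIR99021 alone thus differed by less than the spread between replicates.

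For the comparison of Esrrb null with floxed cells, Esrrb itself was at 144, 111 and 109.9 CPM in floxed and 58.1, 62.7 and 58.7 CPM in Esrrb null cells, without overlap, with a log2 fold change of -0.99 (SE 0.10, adjusted p = 7.44e-05, quasi-likelihood F-test of edgeR, Benjamini-Hochberg adjusted) for a count that covers the whole gene. In the Esrrb fl/fl cells Nodal was higher than in any wild-type sample, at 133, 168 and 177 CPM in floxed and 268, 262 and 254 CPM in Esrrb null cells. The groups did not overlap. The log2 fold change of 0.75 (SE 0.09, adjusted p = 2.06e-04, quasi-likelihood F-test of edgeR, Benjamini-Hochberg adjusted) was below the fold threshold for a call. The level against wild-type cells is a difference between lines, passages and culture times, which cannot be told apart.

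Gdf3 (ENSMUSG00000030117, chr6:122605403-122610087, minus strand) encodes a Nodal-related ligand. It was at 37, 38.2 and 37.3 CPM in DMSO and at 35, 41.8 and 39.4 CPM in Fgf2/Activin, overlapping ranges, while CH had 107, 118 and 121 CPM and 2i 126, 140.0 and 134 CPM. Both inhibitor conditions lay above every DMSO and Fgf2/Activin sample. Gdf3 was 3.09-fold higher in CH than in DMSO (log2 fold change 1.63, SE 0.08) and 2.99-fold lower in Fgf2/Activin than in CH (-1.58, SE 0.08), with adjusted p = 1.61e-07 and 1.79e-07 in the quasi-likelihood F-test of edgeR, Benjamini-Hochberg adjusted. It is the one gene of the 8 that was lower in Fgf2/Activin than in CH at the thresholds used. In Esrrb floxed cells it was at 159, 139 and 150.2 CPM and in Esrrb null cells at 83.3, 88.2 and 84 CPM, without overlap, and the log2 fold change of -0.77 (SE 0.06, adjusted p = 1.82e-05, edgeR) was short of the fold threshold.

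Tdgf1 (ENSMUSG00000032494, chr9:110939603-110946158, minus strand), the coreceptor gene, varied widely between replicates. It was at 50.6, 112 and 21.9 CPM in DMSO, 89.9, 221 and 229 CPM in CH, 148, 197 and 190.2 CPM in 2i, and 447, 431 and 391 CPM in Fgf2/Activin. The 3 Fgf2/Activin samples lay above the other 9 wild-type samples, and CH replicate 1 lay below DMSO replicate 2. The 6.86-fold difference between Fgf2/Activin and DMSO just missed the call (log2 fold change 2.78, SE 0.51, adjusted p = 0.0102 from the quasi-likelihood F-test of edgeR, Benjamini-Hochberg adjusted) and passed it with the replicate number as a block (2.91, SE 0.43, adjusted p = 0.00134) or without DMSO replicate 2 (3.54, adjusted p = 0.00273). It was also called with DESeq2's size factors, upper-quartile scaling, no filter, DESeq2's Wald test and without replicate 1 of every group, which makes 7 of 13 alternatives, with adjusted p from 2.19e-07 to 0.05 over the 13. Between CH and DMSO the log2 fold change was 1.55 (SE 0.49, adjusted p = 0.0242, edgeR) without a call. It was called with the block (1.61, adjusted p = 0.0067), without DMSO replicate 2 (2.31, adjusted p = 0.00239), without CH replicate 1 (1.87, adjusted p = 0.00867), by DESeq2's Wald test (0.00318) and without replicate 1 of every group (0.00156), with adjusted p from 0.00156 to 0.0929 over 13 alternatives. Fgf2/Activin was not called against CH (1.23, SE 0.48, adjusted p = 0.0567, edgeR) or against 2i (1.24, SE 0.48, adjusted p = 0.049, edgeR), the latter being called with only these 6 samples fitted (1.25, adjusted p = 1.17e-04). Esrrb floxed cells had 479, 597 and 617 CPM and Esrrb null cells 252, 363 and 314 CPM, with no overlap and a log2 fold change of -0.83 (SE 0.14, adjusted p = 8.81e-04, edgeR), under the fold threshold.

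Reads of Tdgf1 can also match its pseudogene Tdgf1-ps1, which matches 26.5% of the longest Tdgf1 transcript in stretches of 75 bases or longer with an identity of 97% or above. Tdgf1-ps1 was counted at 32.3, 29.5 and 29.4 CPM in Fgf2/Activin and at 3.16, 6.61 and 1.08 CPM in DMSO. How the counting split reads between the 2 loci is uncertain, and the Tdgf1 values carry that uncertainty.

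Foxh1 (ENSMUSG00000033837, chr15:76668225-76669948, minus strand) encodes the DNA-binding partner of the activated Smads. Its level was highest in DMSO, at 95.6, 93.7 and 100.3 CPM, against 71, 81.5 and 75.4 CPM in Fgf2/Activin, 49, 58.2 and 55.5 CPM in CH and 51.2, 65.9 and 58.8 CPM in 2i. CH and 2i overlapped, and the other neighbours in this order did not. No comparison reached the fold threshold, and the log2 fold change of CH against DMSO was -0.83 (SE 0.10, adjusted p = 7.84e-05, quasi-likelihood F-test of edgeR, Benjamini-Hochberg adjusted). Esrrb floxed and null cells overlapped, at 80.5 to 85.7 CPM and 83.2 to 90.3 CPM.

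**Figure D1:**
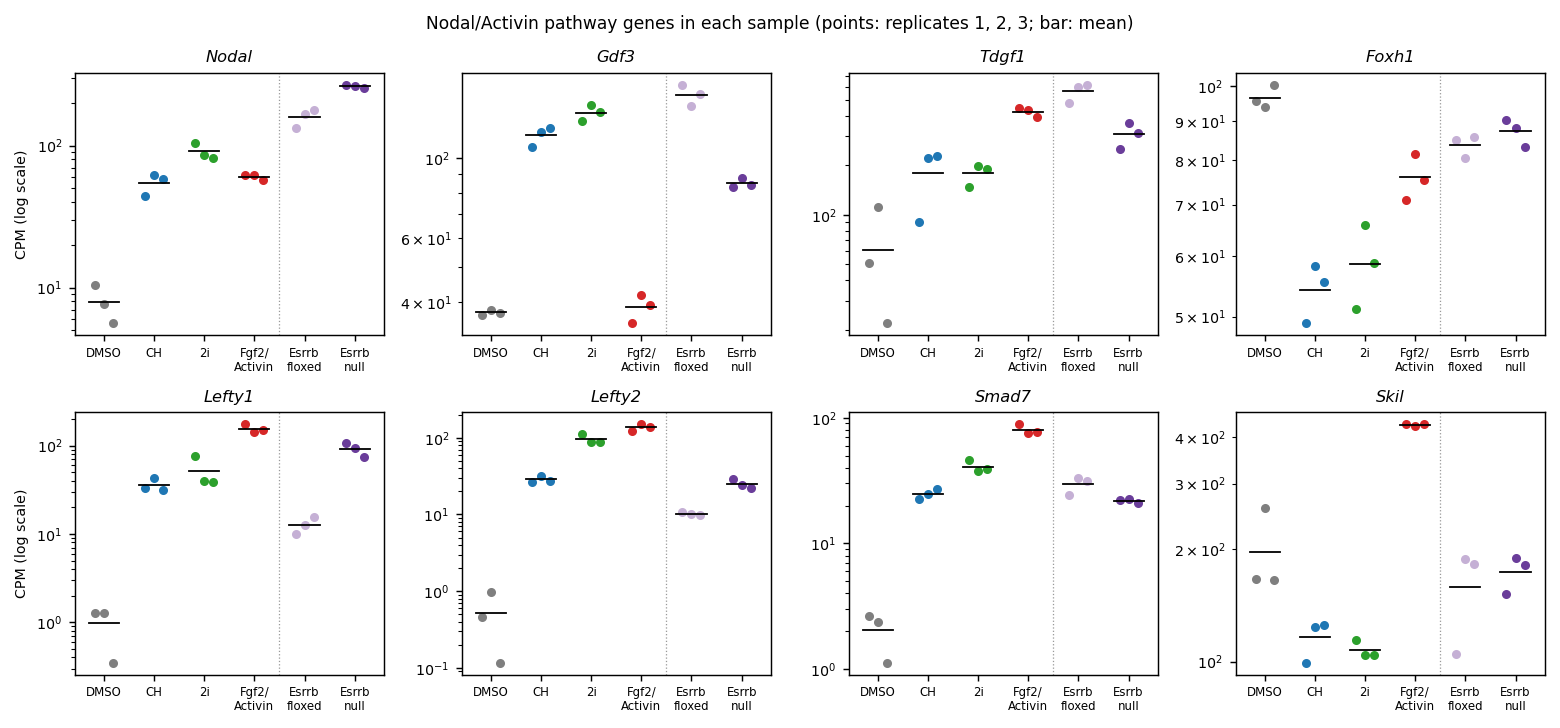
CPM on a log axis for 8 pathway genes in the 6 groups, with 1 point for each of the 3 replicates and a bar at the mean; the dotted line separates E14 cells (48 h) from Esrrb fl/fl cells (24 h). Lefty1, Lefty2 and Smad7 were lowest in DMSO and highest in Fgf2/Activin among the wild-type groups, while Gdf3 in Fgf2/Activin was at 35 to 41.8 CPM and overlapped DMSO.

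The secreted antagonists Lefty1 and Lefty2, which block Nodal by binding it and its coreceptor, ranged widely between groups. Lefty1 (ENSMUSG00000038793, chr1:180935022-180938400, plus strand) was at 1.28, 1.28 and 0.348 CPM in DMSO, from 48, 41 and 9 counts. CH cells had 33.2, 42.9 and 31.1 CPM, 2i cells 76.8, 40 and 39.1 CPM and Fgf2/Activin cells 174, 144 and 148 CPM. Every Fgf2/Activin sample was above every 2i and CH sample, CH and 2i overlapped, and DMSO lay far below all of them. Against DMSO the fold change was 153 in Fgf2/Activin (log2 fold change 7.26, SE 0.41, adjusted p = 2.77e-06) and 35.4 in CH (5.15, SE 0.39, adjusted p = 2.67e-06), by the quasi-likelihood F-test of edgeR, Benjamini-Hochberg adjusted. In the same test Fgf2/Activin was 4.33-fold above CH (2.12, SE 0.31, adjusted p = 2.42e-04) and 2.99-fold above 2i (1.58, SE 0.30, adjusted p = 0.00114).

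Lefty2 (ENSMUSG00000066652, chr1:180893108-180899103, plus strand) lies 35.9 kb from Lefty1 on the same strand. DMSO cells had 0.455, 0.971 and 0.116 CPM, from 17, 31 and 3 counts, CH cells 26.8, 32.1 and 27.6 CPM, 2i cells 113, 88.6 and 87.3 CPM and Fgf2/Activin cells 121, 150.0 and 139 CPM. The 4 groups did not overlap. Lefty2 was 255-fold higher in Fgf2/Activin than in DMSO (log2 fold change 8.00, SE 0.36, adjusted p = 7.77e-07, quasi-likelihood F-test of edgeR, Benjamini-Hochberg adjusted) and 54-fold higher in CH than in DMSO (5.75, SE 0.35, adjusted p = 4.92e-07). These fold sizes rest on few DMSO counts: without DMSO replicate 2 the log2 fold changes were 8.76 and 6.52. Lefty2 was called between 2i and CH, 3.33-fold higher in 2i (1.74, SE 0.25, adjusted p = 0.00195, edgeR), although without CH replicate 3 this call was lost (1.70, adjusted p = 0.0104). It was not called between Fgf2/Activin and 2i (0.50, SE 0.24, adjusted p = 0.1, edgeR).

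Both Lefty genes rose in Esrrb null cells. Lefty1 was at 10.1, 12.6 and 15.4 CPM in Esrrb floxed and at 108, 94.1 and 73.8 CPM in Esrrb null cells, and Lefty2 at 10.8, 10 and 9.85 CPM and at 29.3, 24 and 22.1 CPM. Neither gene's groups overlapped. The increase was 7.42-fold for Lefty1 (log2 fold change 2.89, SE 0.17, adjusted p = 5.84e-06) and 2.53-fold for Lefty2 (1.34, SE 0.12, adjusted p = 3.53e-05), by the quasi-likelihood F-test of edgeR, Benjamini-Hochberg adjusted. Set beside the wild-type cells, Esrrb null cells in CH had more Lefty1 than CH samples of E14, at 31.1 to 42.9 CPM, and less than Fgf2/Activin samples, at 144 to 174 CPM, whereas their Lefty2, at 22.1 to 29.3 CPM, overlapped the CH samples of E14, at 26.8 to 32.1 CPM. The floxed cells in CH were themselves below the E14 cells in CH for both genes, a difference in which line, passage and culture time cannot be told apart.

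Replicate values of the ratio of Lefty2 to Lefty1 did not overlap in 3 of 6 comparisons. Counts per base of annotated exon gave a Lefty2 to Lefty1 ratio of 0.543, 0.503 and 0.598 in CH, 0.988, 1.49 and 1.51 in 2i, and 0.468, 0.702 and 0.633 in Fgf2/Activin. In DMSO, where the counts are few, the ratio was 0.238, 0.509 and 0.224. In Esrrb floxed cells it was 0.72, 0.535 and 0.431, and in Esrrb null cells 0.183, 0.172 and 0.201. The 2i samples lay above the other 9 wild-type samples and the null samples below the floxed ones. For 2i against CH the log2 ratio differed by 1.25, for Fgf2/Activin against 2i by -1.14 and for null against floxed cells by -1.57, each with p = 0.10 in a two-sided exact permutation test, the smallest value that 3 against 3 samples allow. For Fgf2/Activin against CH it differed by 0.11 (p = 0.60, same exact test). Against DMSO, with overlapping replicates, it differed by 0.98 for Fgf2/Activin and by 0.86 for CH (p = 0.20 each, same exact test). The transcripts are 91.3% identical over 1161 aligned columns, and 17.7% of the longest Lefty1 transcript matches Lefty2 in stretches of this kind, so some reads may have been assigned to either gene.

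Smad7 (ENSMUSG00000025880, chr18:75367529-75395935, plus strand) encodes the inhibitory Smad that blocks the receptors. It followed the order of Lefty2 in wild-type cells, at 2.62, 2.35 and 1.12 CPM in DMSO, 22.7, 24.9 and 27 CPM in CH, 45.7, 38 and 38.8 CPM in 2i and 88.7, 75.2 and 76.3 CPM in Fgf2/Activin, with no overlap between groups. The fold change over DMSO was 38.6 in Fgf2/Activin (log2 fold change 5.27, SE 0.24, adjusted p = 7.77e-07) and 12 in CH (3.59, SE 0.23, adjusted p = 8.03e-07), by the quasi-likelihood F-test of edgeR, Benjamini-Hochberg adjusted. Fgf2/Activin was 3.21-fold above CH (1.68, SE 0.20, adjusted p = 5.75e-05, edgeR). Against 2i the log2 fold change of 0.97 (SE 0.19, adjusted p = 0.00158, edgeR) lay at the fold threshold: it was 1.06 with upper-quartile scaling, 1.01 without Fgf2/Activin replicate 2, 1.00 without Fgf2/Activin replicate 3 and 1.05 without 2i replicate 1, each then called. Smad7 was not higher in Esrrb null cells. They had 22, 22.7 and 20.9 CPM of Smad7 against 24.1, 33.4 and 31.2 CPM in floxed cells, a log2 fold change of -0.40 (SE 0.12, adjusted p = 0.0182, edgeR) that was not called.

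Skil (ENSMUSG00000027660, chr3:31095058-31122577, plus strand) encodes SnoN, a corepressor of Smad complexes. It was at 433, 429 and 433 CPM in Fgf2/Activin, 166, 258 and 165 CPM in DMSO, 99.2, 124 and 125 CPM in CH and 114, 104 and 104 CPM in 2i. Fgf2/Activin lay above all other wild-type samples, and CH and 2i overlapped below DMSO. Skil was 2.2-fold higher in Fgf2/Activin than in DMSO (log2 fold change 1.14, SE 0.16, adjusted p = 0.0019, quasi-likelihood F-test of edgeR, Benjamini-Hochberg adjusted), a call that was lost when only these 6 samples were fitted (adjusted p = 0.0258). It was 3.71-fold higher than in CH (1.89, SE 0.16, adjusted p = 5.39e-06) and 4.01-fold higher than in 2i (2.00, SE 0.16, adjusted p = 2.17e-06). CH was not above DMSO for this gene (-0.75, SE 0.16, adjusted p = 0.0026, edgeR), and Esrrb floxed and null cells overlapped, at 105 to 188 and 152 to 189 CPM.

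**Figure D2:**
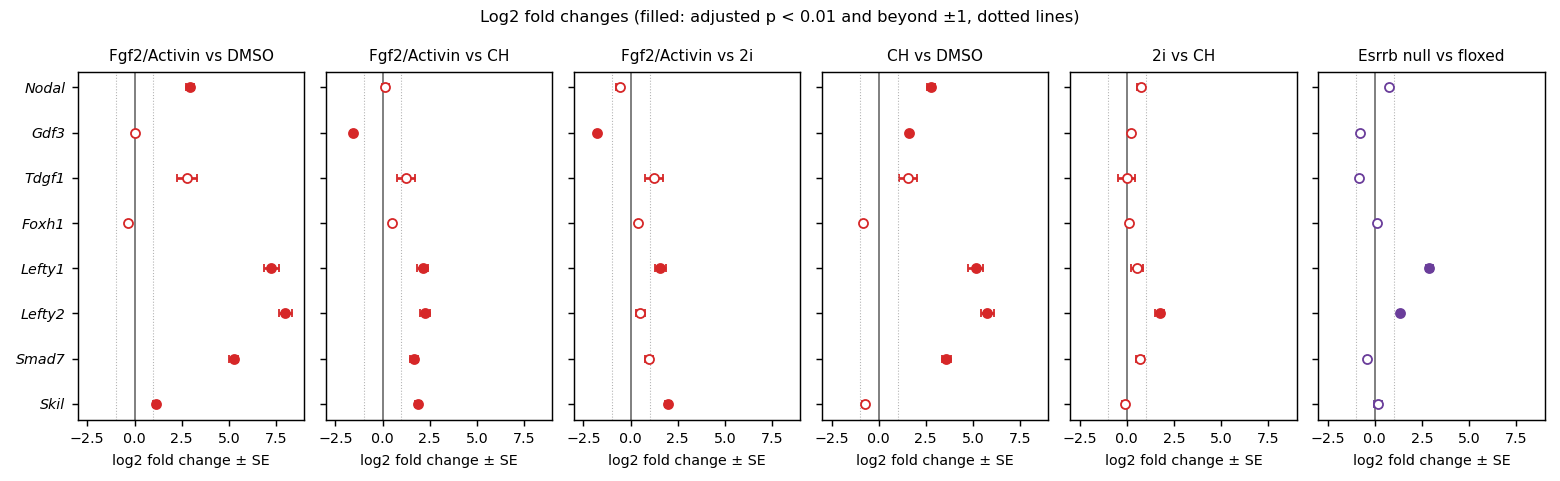
Fitted log2 fold changes with their SE for 8 pathway genes in 6 comparisons; filled points passed the adjusted p of 0.01 and a log2 fold change of 1 in either direction. Lefty1 and Lefty2 had the largest values against DMSO, 7.26 and 8.00 in Fgf2/Activin, and were the only filled points between Esrrb null and floxed cells.

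Counted over the 8 genes, Fgf2/Activin against CH gave 4 higher (Lefty1, Lefty2, Smad7, Skil) and 1 lower (Gdf3), where 18.2% of all genes were called. Fgf2/Activin against 2i gave Lefty1 and Skil higher and Gdf3 lower, 3 of 8 where the share over all genes was 23.5%, so this count is no result about the 8 as a set. Between 2i and CH, 1 of 8 was called, Lefty2, against 1.99% of all genes, which is 326 genes. That number was 672 with the replicate block, 175 without CH replicate 2, 208 without 2i replicate 1, 144 without 2i replicate 2 or 3, and 768 without replicate 1 of every group. Between Esrrb null and floxed cells 2 of 8 were called, both Lefty genes, where 16.7% of the 14893 genes tested were called, so this count is likewise no result about the set. The comparisons within the wild-type cells share samples, and their values are given side by side only.

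Per kilobase of exon, the ligand gene Nodal was at 28.9 ± 1.47 CPM per kb (SD, n = 3) in Fgf2/Activin cells, below its inhibitors Lefty1 at 88.4 ± 9.18 and Lefty2 at 52.4 ± 5.67 CPM per kb (SD, n = 3 each). In CH cells Nodal was at 26.1 ± 4.62, Lefty1 at 20.3 ± 3.59 and Lefty2 at 11 ± 1.09 CPM per kb (SD, n = 3 each). Esrrb null cells had 125 ± 3.26 CPM per kb of Nodal, 52.3 ± 9.72 of Lefty1 and 9.63 ± 1.44 of Lefty2 (SD, n = 3 each). On this scale the Lefty genes exceeded Nodal in Fgf2/Activin cells and not in CH or Esrrb null cells.

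Beyond these genes, 50 others of the pathway were examined from a list of ligands, convertases, receptors, Smads, cofactors, inhibitors and targets. Of them 40 were tested in wild-type cells and 37 in Esrrb fl/fl cells. Between Fgf2/Activin and DMSO 3 were higher and 0 lower, 7.5% of those tested against 1.25% of all genes. Between Fgf2/Activin and CH 4 were higher and 6 lower (25% against 18.2%), and between Fgf2/Activin and 2i 5 were higher and 3 lower (20% against 23.5%), shares near those of all genes and no result about the list. CH against DMSO gave 9 higher and 2 lower (27.5% against 17.7%), and Esrrb null against floxed cells 10 higher and 1 lower (29.7% against 16.7%). Between 2i and CH 1 was higher and 3 lower (10% against 1.99%). Of the 3, Fgf8 lost its call with only the 6 samples compared fitted (log2 fold change -4.93, adjusted p = 0.0102, edgeR). The higher gene was Pcsk6, and its call was lost without CH replicate 2 or 3, without any 1 of the 2i replicates and with only these 6 samples fitted (adjusted p between 0.0113 and 0.0159). With the replicate block Tgfb1 and Lhx1 were also called as lower in 2i. The block likewise called Lhx1 as lower in Fgf2/Activin than in CH (-2.36, adjusted p = 4.12e-04, edgeR) and higher than in 2i (3.92, adjusted p = 0.00203). It was called as higher in CH than in DMSO (3.00, adjusted p = 1.36e-04), and none of these 3 was called without the block. The list's median log2 fold change was 0.01, 0.02, 0.24, -0.03, 0.24 and -0.06 in these comparisons, within 0.25 of the median over all genes.

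Among the other ligand genes, those of the Activin subunits were barely counted: Inhba had at most 0.0987 CPM and Inhbb at most 0.235 CPM in any sample. Tgfb1, a ligand gene of the TGF-β receptors, was at 1.18, 1.66 and 2.63 CPM in DMSO, 2.9, 4.64 and 4.35 CPM in Fgf2/Activin and 9.13, 18.1 and 14.9 CPM in CH, without overlap. It was called between CH and DMSO (log2 fold change 2.96, SE 0.37, adjusted p = 9.20e-05, quasi-likelihood F-test of edgeR, Benjamini-Hochberg adjusted), and between Fgf2/Activin and DMSO not without the replicate block (adjusted p = 0.12) but with it (1.15, adjusted p = 0.00169), with no other alternative run for this value. Esrrb null cells had 19.1, 18 and 19.9 CPM and floxed cells 8.9, 9.06 and 8.34 CPM (1.15, SE 0.09, adjusted p = 2.21e-05, edgeR). Pcsk6, which encodes the convertase Pace4 that processes Nodal, was at 69.8, 71.1 and 71.3 CPM in 2i, 39.7, 26.9 and 34.5 CPM in CH, and 10 to 14.2 CPM in DMSO and Fgf2/Activin. It fell in Esrrb null cells to 10.8 CPM in each of the 3 samples, from 50.5, 36 and 34.7 CPM (-1.86, SE 0.15, adjusted p = 1.82e-05, edgeR).

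The 5 receptor genes tested and Smad2, Smad3 and Smad4 did not reach the thresholds of edgeR's test in the wild-type comparisons. The Activin receptor gene Acvr1b was at 36.6 to 38.2 CPM in Fgf2/Activin and 37.4 to 41.3 CPM in DMSO, overlapping, and at 50.6 to 91.6 CPM in CH. Smad2 lay between 45.4 and 59.9 CPM in all 18 samples and Smad4 between 95.5 and 119 CPM. Smad3 in CH, at 26.4, 18 and 17.3 CPM against 56.6, 42 and 32.2 CPM in DMSO, was called with the replicate block (log2 fold change -1.08, adjusted p = 4.56e-06, against 0.011 without it and with no other alternative run, quasi-likelihood F-test of edgeR, Benjamini-Hochberg adjusted). In Esrrb null cells the TGF-β receptor gene Tgfbr2 rose from 0.375, 0.518 and 0.469 CPM to 6.91, 4.28 and 5.12 CPM (3.60, SE 0.28, adjusted p = 1.66e-05, edgeR).

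The gene Pmepa1, a known Smad2/3 target that encodes an inhibitor of Smad signalling, was higher with supplied Activin than with CHIR99021. Pmepa1 was at 35.7, 21 and 22.2 CPM in Fgf2/Activin, 1.43, 1.5 and 1.48 CPM in CH, 2.37, 2.45 and 2.81 CPM in 2i and 0.562, 0.313 and 0.271 CPM in DMSO. These 4 groups did not overlap. Against CH the log2 fold change in Fgf2/Activin was 4.15 (SE 0.27, adjusted p = 8.34e-07, quasi-likelihood F-test of edgeR, Benjamini-Hochberg adjusted). Pmepa1 rose in Esrrb null cells, from 6.91, 4.87 and 6.77 CPM to 26, 26.7 and 25.2 CPM (2.11, SE 0.13, adjusted p = 6.77e-06, edgeR). Its level in Esrrb null cells thus lay within the range of the Fgf2/Activin samples, again between lines that differ in more than Esrrb.

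**Figure D3:**
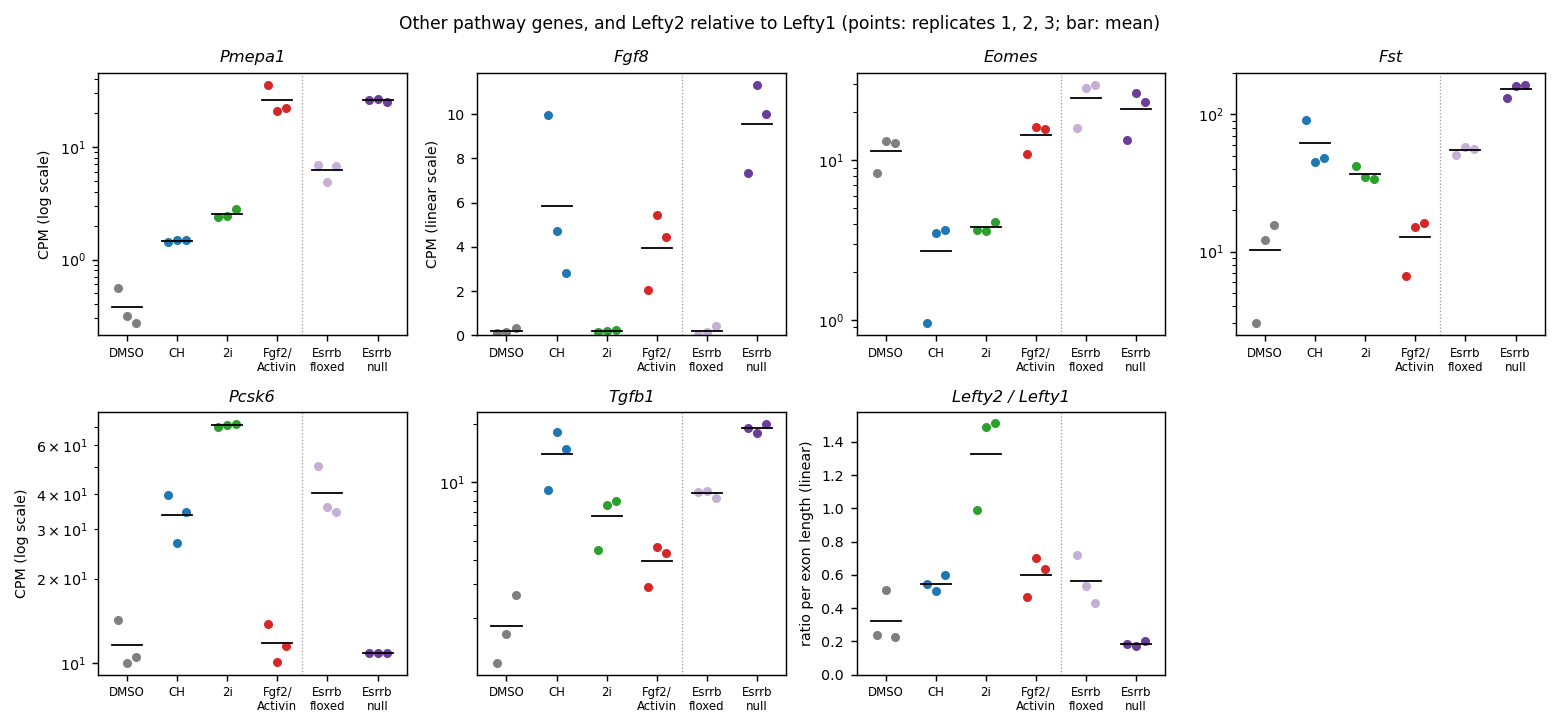
CPM of 6 other pathway genes (log axes, linear for Fgf8, which has a sample at 0) and the ratio of Lefty2 to Lefty1 counts per exon base (linear axis), with 1 point per replicate and a bar at the mean. Pmepa1 was high in Fgf2/Activin and Esrrb null cells, while Pcsk6 was highest in 2i and Fst in Esrrb null cells.

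Other targets and inhibitors moved in a different order. Fst, which encodes the Activin-binding protein follistatin, was at 91.1, 45 and 47.8 CPM in CH, 42.2, 34.7 and 33.8 CPM in 2i, 6.58, 15.2 and 16.2 CPM in Fgf2/Activin and 3, 12.2 and 15.6 CPM in DMSO. It was higher in CH than in DMSO (log2 fold change 2.59, SE 0.53, adjusted p = 0.00242, or 0.0154 when only these 6 samples were fitted, the quasi-likelihood F-test of edgeR, Benjamini-Hochberg adjusted) and in Esrrb null than in floxed cells, at 132, 161 and 164 against 50.8, 58 and 56.2 CPM (1.51, SE 0.09, adjusted p = 6.54e-06). Its call between Fgf2/Activin and CH (-2.28, adjusted p = 0.00452) was lost without any 1 of the Fgf2/Activin replicates (adjusted p = 0.018, 0.014 and 0.0115) or without CH replicate 1 (0.0152). Without replicate 1 of every group the log2 fold change of Fst was -1.57 there and 1.76 between CH and DMSO. Eomes, the T-box gene of the primitive streak, was higher in Fgf2/Activin than in CH, at 11, 16.2 and 15.8 against 0.953, 3.49 and 3.68 CPM (2.40, SE 0.40, adjusted p = 6.26e-04, edgeR), and overlapped DMSO, at 8.35, 13.3 and 12.8 CPM.

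Fgf8 was at 2.05, 5.43 and 4.42 CPM in Fgf2/Activin, 9.98, 4.7 and 2.8 CPM in CH and at most 0.348 CPM in DMSO and 2i. Its call between Fgf2/Activin and DMSO (log2 fold change 4.48, SE 0.64, adjusted p = 0.0025, quasi-likelihood F-test of edgeR, Benjamini-Hochberg adjusted) was lost without Fgf2/Activin replicate 2 or 3 or DMSO replicate 1 or 2, with an adjusted p of 0.011, 0.0104, 0.012 and 0.017, and with only these 6 samples fitted (0.0166). Without DMSO replicate 3 the log2 fold change was 5.23. In Esrrb null cells Fgf8 was at 7.34, 11.3 and 10 CPM against at most 0.417 CPM in floxed cells (5.62, SE 0.45, adjusted p = 2.03e-05, edgeR, or 6.84 without floxed replicate 3). Mixl1, a homeobox gene of the primitive streak, was there at 9.07, 13.4 and 12.4 against 0.429, 0.311 and 0.625 CPM (4.69, SE 0.27, adjusted p = 4.81e-06, edgeR). Tagln, also called there (4.75, SE 0.55, adjusted p = 1.30e-04, edgeR), shares 62.4% of its exon length with Gm48529 on the other strand, and the counting ignored strand. Gdf11 was called as higher (1.15, SE 0.25, adjusted p = 0.00403, edgeR), but not without any 1 of the null replicates or floxed replicates 2 or 3 (adjusted p between 0.0102 and 0.016). Dact2, an inhibitor of Nodal signalling, was lower in Fgf2/Activin than in 2i, at 34.4, 24.4 and 25.3 against 61, 64 and 67.6 CPM (-1.20, SE 0.13, adjusted p = 2.38e-05, edgeR).

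Markers of cell states differed between the same groups. The 6 mesendoderm markers summed to 81, 100.2 and 101 CPM in floxed and 467, 581 and 585 CPM in null cells, and 4 of the 5 tested (T, Mixl1, Evx1, Wnt3) were called as higher where 16.7% of all genes were called in either direction, with T the most abundant at a mean of 396 CPM and Gsc under 1 CPM. Eomes, not called there, overlapped between null and floxed cells, with means of 21 and 24.7 CPM. In wild-type cells the same sum was 9.05, 15 and 14.2 CPM in DMSO, 14.5, 28.3 and 28 CPM in Fgf2/Activin, 695, 531 and 462 CPM in CH and 121, 89 and 87.3 CPM in 2i. T made up most of the CH sum, with a mean of 534 CPM. Between CH and DMSO 4 of the 5 tested were called, where 17.7% of all genes were. T, Mixl1 and Evx1 were higher in CH, and Eomes was lower, with means of 2.71 and 11.5 CPM. The Eomes call was lost with only these 6 samples fitted (adjusted p = 0.0174, edgeR). In bulk RNA a larger share of cells expressing Lefty1 or Lefty2 and more RNA per cell cannot be told apart, and the part of the cells marked by these and the following lists in the results was not tested.

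The 8 ES cell markers, led by Pou5f1 or Dppa5a, summed to 1011, 952 and 914 CPM in DMSO, 1492, 1415 and 1399.6 CPM in Fgf2/Activin, 3202, 3049 and 3310.4 CPM in CH and 5076, 4641 and 4475 CPM in 2i. Dppa5a, with a mean of 167 CPM in DMSO and 500.2 CPM in Fgf2/Activin, was the 1 of the 8 called between these groups. There 1.25% of all genes were called, and the list's median log2 fold change was -0.08. In floxed cells the sum was 3297, 2953 and 3005 CPM and in null cells 1945, 1778 and 1655 CPM. Of the 8, Sox2 and Klf4 were called between them, both as lower in null cells, where 16.7% of all genes were called. All 8 had lower means in null cells, and Esrrb, the deleted gene, is 1 of them. The list's median log2 fold change was -0.85, against 0.00 over all genes tested. The 5 formative and primed epiblast markers, led by Dnmt3b, summed to 2390.3, 3475 and 3786 CPM in DMSO, 2919, 3525 and 3369 CPM in Fgf2/Activin, 477, 873 and 799.5 CPM in CH and 306, 443 and 429 CPM in 2i. Dnmt3b made up most of this sum. All 5 were called as lower in CH than in DMSO, where 17.7% of all genes were called in either direction. All 5 were called as higher in Fgf2/Activin than in CH and in 2i, where 18.2% and 23.5% of all genes were called. None was called between Fgf2/Activin and DMSO, where 1.25% of all genes were. Fgf5 was at 130.3, 113 and 115 CPM in Fgf2/Activin against 27.6, 54.2 and 58.9 CPM in DMSO, without overlap, called with the replicate block (adjusted p = 0.00423) and not without it (0.0766, edgeR). Otx2 was at 207 to 217 CPM in Fgf2/Activin and 168 to 207 CPM in DMSO, just without overlap, and Dnmt3b, Pou3f1 and Sox3 overlapped. In floxed cells the list summed to 979.7, 1301 and 1289 CPM and in null cells to 530.3, 801 and 697 CPM. Within it Otx2 fell in null cells (log2 fold change -1.60, SE 0.26, adjusted p = 8.56e-04, edgeR) while Fgf5 rose, from 0.804, 3.73 and 3.54 CPM to 7.77, 21.8 and 19.2 CPM (2.62, SE 0.50, adjusted p = 0.00196, edgeR).

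Of the 6 anterior visceral endoderm markers, which accompany Cer1 and Lefty1 in that tissue, Ttr and Afp were under 1 CPM in every group. The sum was at most 9.43 CPM in any sample, with Hhex the most abundant by group mean. Between null and floxed cells 1 of the 2 tested was called, Dkk1, higher with means of 2.67 and 1.12 CPM, where 16.7% of all genes were. Hhex, not called there, had means of 4.1 and 5.76 CPM, and Foxa2, not tested there, 1.38 and 0.0699 CPM. Of the 4 tested in wild-type cells, Dkk1 and Foxa2 were called as higher in CH than in DMSO (17.7% of all genes called). Both were called as lower in Fgf2/Activin than in CH (18.2% of all genes called). The 8 primitive endoderm markers summed to 23.5, 24.9 and 25.4 CPM in Fgf2/Activin, 27.2, 33.2 and 42.3 CPM in DMSO, 3.75 to 7.71 CPM in CH and 2i, 17.5, 16.5 and 18.6 CPM in floxed and 82.6, 64.9 and 67.4 CPM in null cells. Col4a1 led this list in every group, with a mean of 65 CPM in null cells, and the defining genes Gata6 and Sox17 were under 1 CPM in every group. Between null and floxed cells 4 of the 6 tested were called, where 16.7% of all genes were: Col4a1, Gata4 (means of 1.32 and 0.563 CPM) and Pdgfra (2.77 and 0.631 CPM) higher and Sox7 lower. The 6 trophectoderm markers summed to 8.28 to 12.4 CPM in Fgf2/Activin, 11.2 to 32.7 CPM in DMSO, 70.2 to 119 CPM in CH, 32.7 to 58.4 CPM in 2i, 19.2 to 30.9 CPM in floxed and 28.2 to 35.7 CPM in null cells, with Elf5 and Hand1 under 1 CPM in every sample and Gata3 at most 1.5 CPM. Of the 3 tested in wild-type cells, Cdx2 and Tfap2c were called as higher in CH than in DMSO, where 17.7% of all genes were called. Cdx2 had means of 63.7 CPM in CH and 0.0933 CPM in DMSO. Krt7, not called there, was lower in CH without overlap, at 2.72, 0.294 and 0.24 against 20.8, 12 and 8.23 CPM. Of the 4 tested in Esrrb fl/fl cells, Cdx2 and Krt7 were called as higher in null than in floxed cells, where 16.7% of all genes were called. Tfap2c, not called there, was lower in null cells without overlap, with means of 8.2 and 14 CPM. The 4 neural markers, led by Nes, summed to 75.5 to 98.5 CPM in DMSO and Fgf2/Activin, 15.7 to 35.1 CPM in CH and 2i, 30.9 to 47.4 CPM in floxed and 212 to 216 CPM in null cells, with Sox1 under 1 CPM throughout. Nes, with means of 31.3 CPM in floxed and 204 CPM in null cells, was called as higher in null cells, while Pax6 was called as lower, with means of 1.43 and 0.425 CPM. These were 2 of the 3 tested there, where 16.7% of all genes were called. Of the 4 tested in wild-type cells only Nes was called. It was lower in CH than in DMSO (17.7% of all genes called) and lower in 2i than in CH (1.99%). It was higher in Fgf2/Activin than in CH and in 2i (18.2% and 23.5%).

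Likeness in pattern was measured as the root mean square difference of mean log2 CPM over the 6 groups, each gene centred on its own mean, among 4057 genes. The closest to Lefty1 were Lefty2 (0.85), Smad7 (1.14) and Chst15 (1.18), and the closest to Lefty2 were Lefty1 (0.85), Smad7 (1.19) and Kirrel2 (1.24). Chst15, which encodes a sulfotransferase of chondroitin sulfate, was at 24, 20 and 21.1 CPM in Fgf2/Activin, 0.883, 1.16 and 0.618 CPM in DMSO, and 15.3, 18.2 and 16.1 CPM in Esrrb null against 1.5, 3.26 and 3.54 CPM in floxed cells. Kirrel2, a gene of the immunoglobulin superfamily, was at 13.8, 21.8 and 21.3 CPM in Fgf2/Activin and 0.321, 1.16 and 0.541 CPM in DMSO, and overlapped between Esrrb null cells, at 4.08, 6.63 and 5.3 CPM, and floxed cells, at 3.27, 7.36 and 8.08 CPM. Nodal had other neighbours, namely Irgm1 (0.63), Rps12-ps4 (0.67) and Gbp4 (0.68), while Lefty1 ranked 1586 and Lefty2 ranked 3058 of 4057 by distance from it. Ranked from the Lefty genes the same distances place Nodal near, at 12 from Lefty1 (1.65) and at 14 from Lefty2 (2.05). The measure spans both lines, and for Rps12-ps4 and Gbp4 the floxed and null cells overlapped while both lay above every wild-type sample, a difference between lines. Irgm1, an interferon-inducible GTPase gene, was at 62.3, 71.5 and 67 CPM in Esrrb null and 26.1, 36.9 and 34.7 CPM in floxed cells.

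The RefSeq promoter table (GRCm38.p6) held 3 of the 9 genes, Nodal, Tdgf1 and Cer1, and not Lefty1, Lefty2, Gdf3, Foxh1, Smad7 or Skil. The 250 bases before the start site of the ligand gene and the coreceptor gene are printed with matches in capitals. Both genes had their lowest group mean in DMSO among the 6 groups, although DMSO and CH samples overlapped for Tdgf1. They were searched on both strands for the Smad letters CAGAC, the Foxh1 letters AATACACA and AATCCACA, the TCF/LEF letters CTTTGAT and CTTTGAA, and the Esrrb letters AAGGTCA. Of 32851 promoters of this length in the table, 42.2% held the Smad letters, 1.61% the Foxh1 letters, 7.48% the TCF/LEF letters and 4.08% the Esrrb letters. The Nodal window (chr10:61417722-61417971, plus strand) held none of them, and the Tdgf1 window (chr9:110946159-110946408, minus strand) held CAGAC 1 time. The Cer1 window (chr4:82885152-82885401, minus strand), not printed here, also held CAGAC 1 time, and Cer1 had at most 4 counts in any sample. A match is a description of letters and not of a site.
Nodal: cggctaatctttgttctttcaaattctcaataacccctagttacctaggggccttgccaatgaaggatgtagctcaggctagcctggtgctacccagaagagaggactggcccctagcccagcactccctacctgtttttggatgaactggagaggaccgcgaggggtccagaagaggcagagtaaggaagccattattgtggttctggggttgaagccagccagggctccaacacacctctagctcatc
Tdgf1: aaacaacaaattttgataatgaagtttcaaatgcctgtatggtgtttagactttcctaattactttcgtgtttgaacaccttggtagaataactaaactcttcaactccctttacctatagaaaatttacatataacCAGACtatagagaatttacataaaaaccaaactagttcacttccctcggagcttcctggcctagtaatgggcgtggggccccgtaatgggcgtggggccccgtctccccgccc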

How the data were processed

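RNA sequencing of 18 samples was used. The authors used TopHat2 2.1.1 for alignment to mm10, counted reads on Ensembl genes of GRCm38 with HTSeq 0.7.2 without regard to strand, and deposited whole-number counts; the Ensembl release is not given in the sources used here. Of the 49671 identifiers, 49412 matched GENCODE's annotation of GRCm38, which gave symbols, positions and exon lengths.

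Differential expression was computed with edgeR 4.0.16 in R 4.3.3 (limma 3.58.1 loaded): TMM scaling, filterByExpr, glmQLFit and glmQLFTest, with the 12 wild-type and the 6 Esrrb fl/fl samples in separate fits. SEs are the log2 fold change divided by the square root of the F statistic, and approximate intervals are 1.96 SEs wide on each side. DESeq2 1.42.0 served as an alternative. The fits were first tested on simulated data. Exact permutation tests ran over the 20 splits of 6 samples. Transcripts were compared with blastn 2.17.0 and aligned with Biopython 1.88, and plots were drawn with matplotlib 3.10.9 in Python 3.11.15.

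Named genes were the 9 genes, those of the wider pathway list called with a mean of at least 1 CPM over the fit, and the 3 genes most like Lefty1, Lefty2 and Nodal among genes whose mean reached 5 CPM and whose group means lay at least 2-fold apart, with log2 CPM at a prior count of 2. Values are not given for every gene that met this rule. Marker genes, Smad3, Lhx1, Inhba, Inhbb, Acvr1b, Smad2 and Smad4 are given outside this rule, chosen after their values were seen. The genes and the lists were chosen with earlier results of these data known.

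The labels number the samples 1 to 3 in each group. Deviations of same-numbered samples from their group means correlated between 0.33 and 0.79 in the 18 wild-type pairs and between 0.20 and 0.46 in the 3 Esrrb fl/fl pairs, across genes, which are not independent replicates. Replicates 2 and 3 of different groups correlated alike, between 0.31 and 0.61 in wild-type cells and at 0.22 and 0.29 in Esrrb fl/fl cells, so the numbers set replicate 1 apart and do not tell 2 from 3. The replicate number was fitted as a block as an alternative. The labels do not say whether replicates were separate cultures, so p-values measure the spread between these samples, which may be technical. Alternatives were DESeq2's size factors, upper-quartile scaling, no filter, DESeq2's Wald test, no minimum fold change, the block, only the 6 samples compared, each replicate left out, and, chosen after seeing the data, leaving out replicate 1 of every group. The depth sets the precision of genes with few counts, such as the Lefty genes in DMSO.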

Additional observations from a re-analysis of the deposited data

How the results depend on the processing

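Of 664 alternative values for the 8 pathway genes tested, 630 kept direction and side of the threshold, 2 lost the call, 25 gained it and 7 changed sign; of 466 for other called pathway genes with a mean of at least 1 CPM, 443 kept both and 23 lost the call. The cause was not tested except where fewer samples or the absent fold threshold make the change by construction.

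Values that changed sign were small and not called. For Gdf3 between Fgf2/Activin and DMSO, leaving out 1 replicate gave log2 fold changes from -0.01 to 0.12. For Skil between Esrrb null and floxed cells the range was -0.06 to 0.30, and for Tdgf1 between 2i and CH -0.33 to 0.20, with 0.03 under the replicate block. Without replicate 1 of every group, chosen after seeing the data, Nodal between Fgf2/Activin and CH was at -0.02.

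Between Fgf2/Activin and DMSO, 374 genes were called by DESeq2's Wald test, 424 with the replicate block, 87 when only the 6 samples compared were fitted, 499 without replicate 1 of every group and 112 to 171 without 1 replicate. Between 2i and CH these counts were 597, 672, 100, 768 and 144 to 275. With no minimum fold change 4995 genes were called between Fgf2/Activin and CH, 6193 between Fgf2/Activin and 2i, 4750 between CH and DMSO and 6621 between Esrrb null and floxed cells. Of the 8 genes, 5 were then called between Fgf2/Activin and 2i and 5 between Esrrb null and floxed cells. Leaving out 1 replicate gave 0 to 1 of the 8 between 2i and CH.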
